A study of Mus musculus with 6 samples.

Results

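The pentose phosphate pathway was followed through the genes of 8 enzymes, out of 27179 genes counted in this mRNA-seq series. The genes were taken by name and matched to NCBI Gene identifiers, and no measured value entered that rule. Earlier results of these data were known when they were chosen. The oxidative branch had 4 genes (G6pdx, H6pd, Pgls and Pgd) and the non-oxidative branch had 4 genes (Rpia, Rpe, Tkt and Taldo1). The samples came from 3 mouse embryonic fibroblast (MEF) lines, with 2 libraries per line from separate RNA preparations. The parental CPN-/- line lacks the core clock proteins of 3 families, with Cry1, Cry2, Per1, Per2, Nr1d1 and Nr1d2 all disrupted. The CPN-/- CRY1 line carries the same 6 disruptions and exogenous CRY1, and the CPN-/- CRY2 line carries them and exogenous CRY2. Both CRY lines were made by viral delivery, so that a viral promoter and not the gene's own drives CRY, and each was grown from single colonies under drug selection. They are called the CRY1 line and the CRY2 line here, and CPN-/- the parental line. A difference between lines can therefore not be told apart from a difference between colonies, and p-values measure the spread between RNA preparations of 1 line. All lines were cultured in the same medium without treatment.

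The pentose phosphate pathway branches off glycolysis at glucose 6-phosphate. Its oxidative branch makes NADPH, the reducing power for lipid synthesis and for glutathione recycling, and ends in ribulose 5-phosphate. Its non-oxidative branch converts pentose phosphates into one another and exchanges them with fructose 6-phosphate and glyceraldehyde 3-phosphate of glycolysis, in both directions. Dividing fibroblasts use the pathway for the ribose of nucleotides and for NADPH. CRY1 and CRY2 are repressors of CLOCK-BMAL1, a transcription factor that binds E-boxes in promoters. The study asked which genes respond to either CRY protein in the absence of PER and NR1D, with glycolysis and lactate production as its main interest.

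The libraries held between 25957409 and 36106949 counts. Levels are given as CPM, counts scaled to a common library total, after TMM, a method that equalises libraries on the bulk of their genes. Cry1 was highest in the CPN-/- CRY1 libraries (165 and 190 CPM, against 125 and 115 in CPN-/- and 51.0 and 48.3 in CPN-/- CRY2), and Cry2 was highest in the CPN-/- CRY2 libraries (349 and 351 CPM, against 136 and 129 in CPN-/- and 50.7 and 51.7 in CPN-/- CRY1). Both genes, though disrupted, still gave counts in CPN-/-. Of 10 fibroblast markers, 9 were above 0 in all libraries, but Thy1 was at most 0.230 CPM everywhere, Dcn was between 0.0324 and 2.24 CPM, and Lum was at 0 in 5 of 6 libraries. The summed level of the fibroblast list was 10066 to 13453 CPM in CPN-/-, 12825 to 13008 CPM in CPN-/- CRY1 and 16067 to 16622 CPM in CPN-/- CRY2, and its part in the results on the enzyme genes was not tested. Summed markers of epithelial cells reached at most 0.482 CPM, of endothelial cells 0.852 CPM, of leukocytes 2.34 CPM and of skeletal muscle 0.130 CPM. The 2 CPN-/- libraries stood further apart than those of the other lines. Their log2 difference fell with transcript length across 12478 genes (Spearman's rho of -0.697, against 0.205 in CPN-/- CRY1 and -0.289 in CPN-/- CRY2, a description over genes, which are not independent replicates). The difference for each enzyme gene is given with the results.

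Promoter windows of RefSeq (GRCm38.p6) were matched for all 8 genes. The only window of H6pd, at chr4:150003187-150003486, lies inside the gene, which ends at 150009023 on the minus strand. Sequence upstream of the whole H6pd gene was thus not searched. The windows of G6pdx and Tkt, the entry enzyme and the gene of the 8 with the largest difference between the CRY lines, are shown because the results turn on them. Each runs from 250 bases before to 50 bases after the annotated start, 5′ to 3′ on the gene's strand, G6pdx at chrX:74428831-74429130 (minus strand) and Tkt at chr14:30548881-30549180 (plus strand). Capitals mark the match to an antioxidant response element core, spelled TGACNNNGC and read here on the opposite strand.
G6pdx promoter: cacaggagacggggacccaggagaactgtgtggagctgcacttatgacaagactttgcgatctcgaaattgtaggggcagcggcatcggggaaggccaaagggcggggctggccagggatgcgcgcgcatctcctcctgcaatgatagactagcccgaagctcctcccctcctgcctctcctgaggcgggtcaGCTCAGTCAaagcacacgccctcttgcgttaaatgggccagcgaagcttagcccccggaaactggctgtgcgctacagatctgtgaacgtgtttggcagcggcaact
Tkt promoter: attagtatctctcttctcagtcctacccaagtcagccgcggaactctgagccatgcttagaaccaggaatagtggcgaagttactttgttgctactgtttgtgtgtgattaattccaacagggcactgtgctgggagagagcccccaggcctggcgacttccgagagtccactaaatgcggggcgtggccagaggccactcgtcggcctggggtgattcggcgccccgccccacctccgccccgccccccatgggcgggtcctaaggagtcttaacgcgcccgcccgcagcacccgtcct
The E-box CACGTG was searched on both strands in 9 windows (Pgd has 2 annotated starts) and was found in 0. Among 32851 promoter windows of this length, 7.15% hold one. With 9 windows, a count of 0 does not set the genes apart from that share. The core TGACNNNGC, the shared letters of sites for the oxidative stress factor NRF2, was found in 2 windows, against 12.4% of all windows. These were G6pdx, 57 to 49 bases before the start, and the second start of Pgd, 4 to 12 bases after it. The second Pgd window, at chr4:149166033-149166332, lies inside the gene, which runs from 149149991 to 149166705. Its match is thus not in sequence upstream of the gene. The letters ACGTG, which lie within the E-box and are the core of hypoxia response elements, were found in 1 of the 9 windows, that of G6pdx, 30 to 34 bases after the start, against 19.6% of all windows. A match of letters is no binding site, and longer-range elements lie outside these windows.

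Counts for the 8 genes ranged from 499 for Rpia to 8407 for Tkt in a library, and all 8 passed the filter on low counts. Levels of different genes were compared per kilobase of the longest coding transcript. Averaged over the 6 libraries, Taldo1 was highest at 120 CPM per kilobase, followed by Pgls at 78.9, Pgd at 78.7, Tkt at 61.1, G6pdx at 49.8, Rpe at 26.2, H6pd at 14.4 and Rpia at 11.4. The ranges of neighbours in this order overlapped across libraries except between G6pdx and Rpe and between Rpe and H6pd. Within each library, however, Taldo1 was above Pgls and Pgd was above Tkt. The order of Pgls and Pgd, of Tkt and G6pdx, and of H6pd and Rpia varied between libraries. The range of G6pdx, 42.2 to 55.7 CPM per kilobase, lay wholly above that of Rpe, 25.0 to 27.2, and that of Rpe lay above that of H6pd, 11.1 to 18.0. The isomerase Rpia, which makes ribose 5-phosphate, was the lowest in mean level of both branches.

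**Figure D1:**
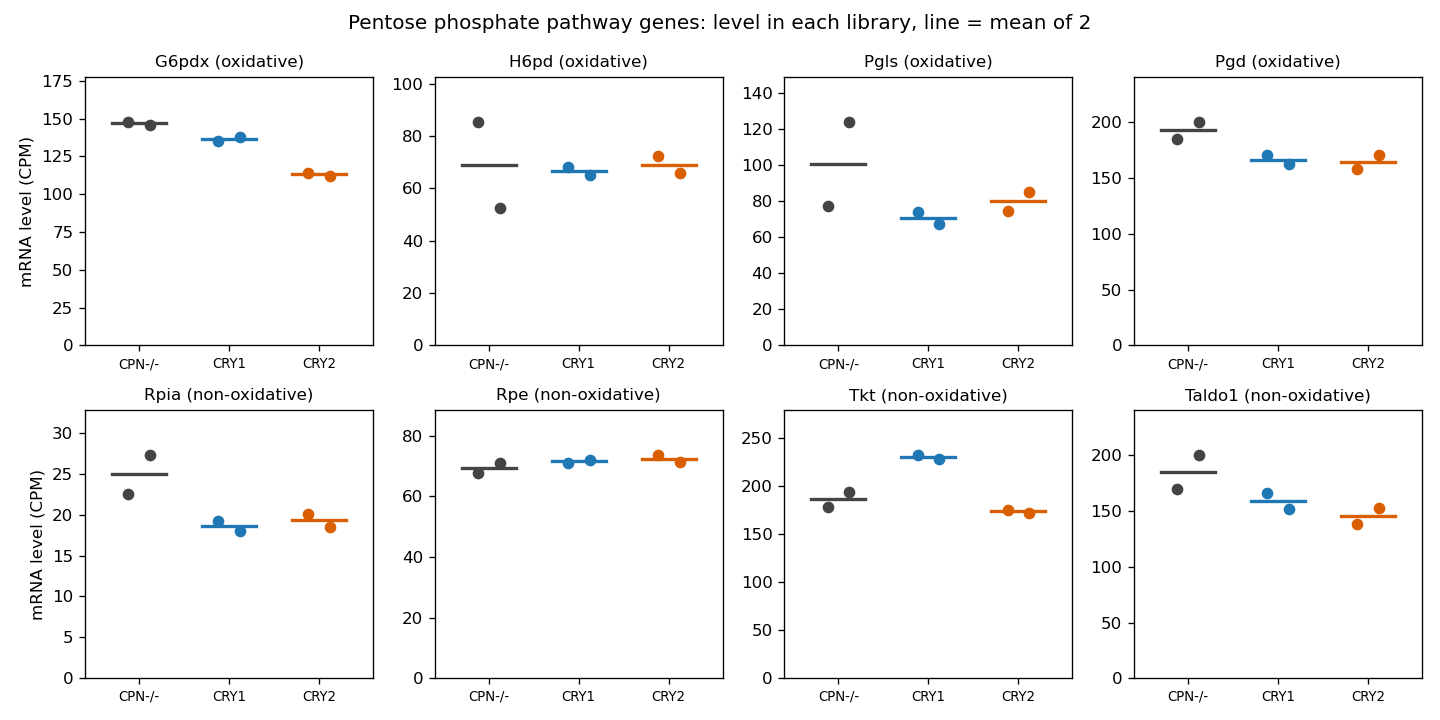
Level of each of the 8 genes (vertical axes, CPM, from 0, each gene on its own scale) in the libraries of the 3 lines (horizontal axes), with points for libraries and bars for the mean of 2. G6pdx was lowest in both CRY2 libraries (114 and 112 CPM), Tkt was highest in both CRY1 libraries (233 and 228 CPM), and the CPN-/- points lie far apart for H6pd and Pgls.

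G6pdx encodes glucose-6-phosphate dehydrogenase, the rate-limiting entry enzyme of the oxidative branch that makes its first NADPH. The gene (NCBI Gene 14381) lies on chromosome X from 74409483 to 74428880 of GRCm38.p6 (mm10), on the minus strand, with 13 exons in its longest coding transcript. G6pdx stood at 148 and 146 CPM in CPN-/-, at 135 and 138 CPM in the CRY1 line, and at 114 and 112 CPM in the CRY2 line. The groups did not overlap and the 2 libraries of a line lay close together. Its mean was 147 ± 1.41 CPM in CPN-/-, 137 ± 1.60 CPM in the CRY1 line and 113 ± 1.45 CPM in the CRY2 line (SD, n = 2 each). The log2 fold change was -0.38 (SE 0.09, 95% interval -0.58 to -0.17) in the CRY2 line against CPN-/-, a level 23.0% below, with an adjusted p of 0.053 in edgeR's quasi-likelihood test, just outside the threshold of 0.05. DESeq2 called it lower, with an adjusted p of 0.017, and over all 18 alternatives the adjusted p ran from 1.7e-05 to 0.4. The CRY1 line differed from CPN-/- by -0.10 (interval -0.31 to 0.10, adjusted p = 0.4), and the 2 CRY lines differed by 0.27 (interval 0.07 to 0.48, adjusted p = 0.081). The spread in that test is shared with the CPN-/- libraries. With only the 4 libraries of the CRY lines, the value was 0.27 with an adjusted p of 7.8e-05 in edgeR's test, where 6846 of 14069 genes were called. The cells measured are 1 population per library, and fewer cells of a kind cannot be told apart from less RNA per cell. Exons of G6pdx share 128 bases with Ikbkg on the opposite strand (1860 to 3191 counts), and the intronless copy G6pd2, 93.1% identical over 2331 bases, had 5 to 18 counts.

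H6pd encodes the dehydrogenase that runs the first steps of the branch inside the endoplasmic reticulum. It lies on chromosome 4 from 149979474 to 150009023, on the minus strand (NCBI Gene 100198, 5 exons). H6pd stood at 85.4 and 52.5 CPM in CPN-/-, at 68.2 and 65.2 CPM in the CRY1 line, and at 72.2 and 65.7 CPM in the CRY2 line. The CPN-/- libraries lay above and below all others, and its mean of 69.0 ± 23.3 CPM (SD, n = 2) could not separate it from 66.7 ± 2.12 CPM in the CRY1 line or 69.0 ± 4.62 CPM in the CRY2 line. The log2 fold change in the CRY1 line was -0.05 with an interval of -0.55 to 0.45 (adjusted p = 0.88), and in the CRY2 line the interval was -0.50 to 0.50 (adjusted p = 1).

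Pgls encodes 6-phosphogluconolactonase, which hydrolyses the lactone made by the first enzyme. The gene lies on chromosome 8 from 71592184 to 71596267, on the plus strand (NCBI Gene 66171, 5 exons), and has the shortest transcript of the 8, at 1062 bases. Pgls stood at 77.4 and 124 CPM in CPN-/-, at 74.0 and 67.5 CPM in the CRY1 line, and at 74.4 and 85.3 CPM in the CRY2 line. Only the second CPN-/- library was clearly above the rest. The log2 fold change was -0.51 (SE 0.21, interval -1.01 to -0.00, adjusted p = 0.12) in the CRY1 line and -0.33 (interval -0.84 to 0.17, adjusted p = 0.36) in the CRY2 line.

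Pgd encodes 6-phosphogluconate dehydrogenase, which makes the second NADPH and releases ribulose 5-phosphate. It lies on chromosome 4 from 149149991 to 149166705, on the minus strand (NCBI Gene 110208, 13 exons). Pgd stood at 185 and 200 CPM in CPN-/-, at 170 and 163 CPM in the CRY1 line, and at 158 and 171 CPM in the CRY2 line. Both CPN-/- libraries were above those of the CRY lines, which overlapped each other. The log2 fold change was -0.21 (interval -0.45 to 0.02, adjusted p = 0.15) in the CRY1 line and -0.23 (interval -0.46 to 0.00, adjusted p = 0.21) in the CRY2 line.

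In the non-oxidative branch, Rpia encodes ribose 5-phosphate isomerase, which supplies the sugar of nucleotides. Its locus is on chromosome 6 from 70765720 to 70792175, on the minus strand (NCBI Gene 19895, 9 exons). Rpia stood at 22.5 and 27.3 CPM in CPN-/-, at 19.2 and 18.0 CPM in the CRY1 line, and at 20.1 and 18.5 CPM in the CRY2 line. The CPN-/- libraries were above all libraries of the CRY lines, which overlapped each other. The log2 fold change was -0.42 (SE 0.13, interval -0.72 to -0.11, adjusted p = 0.055) in the CRY1 line and -0.37 (interval -0.67 to -0.06, adjusted p = 0.15) in the CRY2 line.

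Rpe encodes the epimerase that makes xylulose 5-phosphate, a substrate of transketolase. Its locus is on chromosome 1 from 66700797 to 66719805, on the plus strand (NCBI Gene 66646, 7 exons). Rpe was the steadiest of the 8 genes, at 67.7 and 71.1 CPM in CPN-/-, 71.0 and 72.1 CPM in the CRY1 line, and 73.7 and 71.3 CPM in the CRY2 line. Its log2 fold changes were 0.04 (interval -0.17 to 0.26, adjusted p = 0.74) and 0.06 (interval -0.15 to 0.28, adjusted p = 0.67) against CPN-/-. Its exons share 558 bases with Kansl1l on the opposite strand (581 to 1355 counts). The strand setting of the counting is not given in the sources used here, so that reads of these overlaps may have been assigned either way.

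Tkt encodes transketolase, which moves a ketol unit between sugar phosphates and links the branch to glycolysis. The gene maps to chromosome 14 from 30549131 to 30574724, on the plus strand (NCBI Gene 21881, 14 exons). Tkt stood at 179 and 194 CPM in CPN-/-, at 233 and 228 CPM in the CRY1 line, and at 176 and 172 CPM in the CRY2 line. Both CRY1 libraries were above the other 4, and no group overlapped another. The mean was 187 ± 11 CPM in CPN-/-, 230 ± 3.36 CPM in the CRY1 line and 174 ± 2.54 CPM in the CRY2 line (SD, n = 2 each). Tkt was 1.32-fold higher in the CRY1 line than in the CRY2 line, a log2 fold change of 0.41 (SE 0.09, interval 0.18 to 0.63) with an adjusted p of 0.029 in edgeR's quasi-likelihood test. Against CPN-/-, the log2 fold change was 0.30 (SE 0.09, interval 0.08 to 0.53, adjusted p = 0.056) in the CRY1 line, where DESeq2 gave an adjusted p of 0.036 (2.7e-05 to 0.28 over 18 alternatives), and -0.10 (interval -0.32 to 0.12, adjusted p = 0.52) in the CRY2 line. The call between the CRY lines was lost without any one of their 4 libraries, with the log2 fold change at 0.39 to 0.42. In those fits the lone library of a CRY line was assumed to vary like the remaining pairs, CPN-/- among them. With only the 4 libraries of the CRY lines, the value was 0.41 with an adjusted p of 1.6e-07 in edgeR's quasi-likelihood test. In that fit 6846 of 14069 genes were called. Genes of chromosome 14 as a whole had a median of 0.01 in that comparison and of 0.11 in the CRY1 line against CPN-/-. The part of the chromosome in the Tkt values was not tested. The transketolase-like genes were nearly silent, with 0 to 3 counts for Tktl1 and 0 for Tktl2.

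Taldo1 encodes transaldolase, which works beside transketolase on the way back to glycolysis. The gene maps to chromosome 7 from 141392160 to 141402976, on the plus strand (NCBI Gene 21351, 9 exons). Taldo1 stood at 169 and 200 CPM in CPN-/-, at 166 and 152 CPM in the CRY1 line, and at 138 and 152 CPM in the CRY2 line. The first CPN-/- library lay just above the first CRY1 library, and the CRY lines overlapped. The log2 fold change was -0.22 (interval -0.50 to 0.07, adjusted p = 0.22) in the CRY1 line and -0.35 (SE 0.12, interval -0.63 to -0.06, adjusted p = 0.15) in the CRY2 line.

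**Figure D2:**
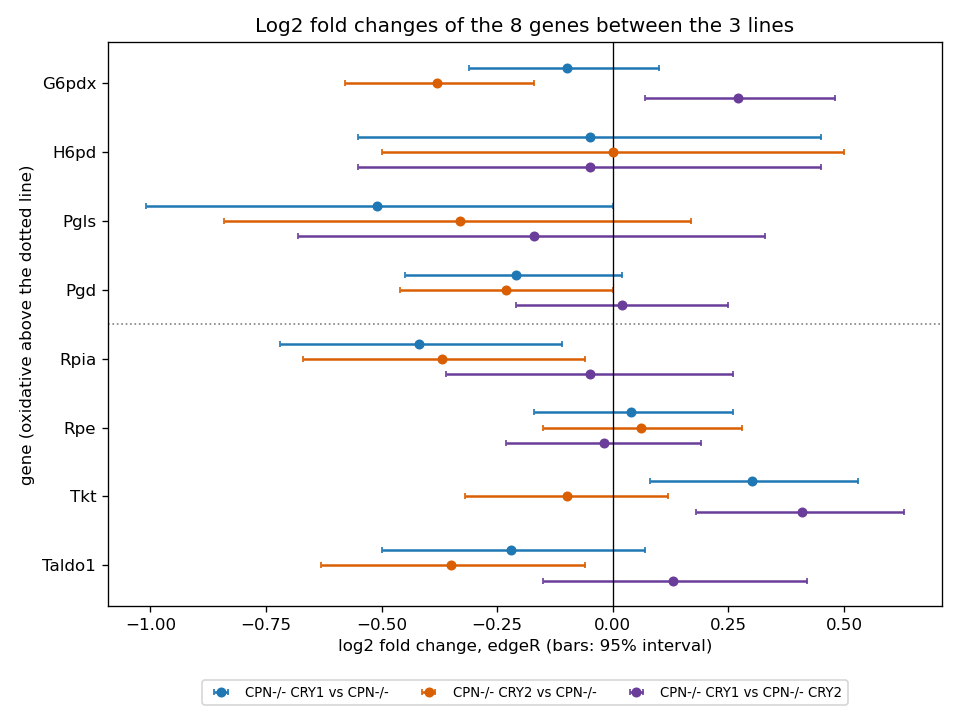
Log2 fold changes of the 8 genes (horizontal axis) with 95% intervals in the 3 comparisons (colours), oxidative genes above the dotted line. With all 6 libraries in the fit, only Tkt between the CRY lines (0.41) was called, and the intervals of H6pd and Pgls are the widest.

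In the CRY1 line against CPN-/-, 0 of the 8 genes were called in either direction by edgeR, where 24.3% of the 14069 genes tested were called, 13.1% lower and 11.2% higher. An unadjusted p under 0.05 was found for 3 of the 8 (Pgls, Rpia and Tkt), against 40.3% of all genes, and DESeq2 called 1 (Tkt), against 24.0% of all genes. In the CRY2 line against CPN-/-, 0 of the 8 were called by edgeR, against 6.66% of all genes, 4.08% lower and 2.58% higher. An unadjusted p under 0.05 was found for 3 (G6pdx, Rpia and Taldo1), against 24.4% of all genes, and DESeq2 called 1 (G6pdx), against 8.59%. Between the CRY lines, 1 of the 8 was called (Tkt, higher in the CRY1 line), against 16.3% of all genes, 7.72% higher and 8.57% lower. DESeq2 called the same gene, among 16.6% of all genes. With 8 genes, counts of 0 and 1 do not set the pathway apart from these backgrounds. The median log2 fold change of the 8 genes was -0.16 in the CRY1 line and -0.28 in the CRY2 line, beside -0.01 for all genes tested in each, and 0.00 between the CRY lines. Apart from Tkt and G6pdx, the 6 other genes differed between the CRY lines by -0.17 (Pgls) to 0.13 (Taldo1), with adjusted p-values of 0.53 to 0.93. Among them, H6pd and Rpia were at -0.05, Rpe at -0.02 and Pgd at 0.02. Negative values were found for 6 of 8 genes in the CRY1 line and for 7 of 8 in the CRY2 line, with Rpe positive in both and Tkt positive in the CRY1 line. The 7 include H6pd at -0.00. The share of negative values over all genes was not counted, but their median was itself just below 0. With the trend of counts with transcript length removed from each library, these medians shrank to -0.04 and -0.08, beside 0.04 and 0.05 for all genes, and 5 and 7 of the 8 values were negative. The 2 comparisons share the CPN-/- libraries, so that they are not independent of each other.

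The 2 branches had similar medians. In the CRY1 line, the oxidative genes had a median log2 fold change of -0.16 and the non-oxidative genes of -0.09. In the CRY2 line, the medians were -0.28 and -0.22. Within a library, the mean log2 CPM of the oxidative genes exceeded that of the non-oxidative genes by 0.49 and 0.33 in CPN-/-, by 0.29 and 0.28 in the CRY1 line, and by 0.36 and 0.41 in the CRY2 line. The values of the CRY1 line were lowest, but the 2 CPN-/- libraries spanned the whole range of the CRY2 line. The oxidative genes summed to 496 and 523 CPM in CPN-/-, 448 and 433 CPM in the CRY1 line, and 419 and 434 CPM in the CRY2 line. The non-oxidative genes summed to 439 and 493 CPM, 489 and 470 CPM, and 408 and 414 CPM in the same order. The oxidative sum was thus higher in both CPN-/- libraries than in every CRY library. The non-oxidative sum of the CRY1 line lay within the range of CPN-/-, and that of the CRY2 line lay below it.

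A more regular difference was seen between single enzymes of the branches. The log2 ratio of Tkt to G6pdx was 0.27 and 0.41 in CPN-/-, 0.78 and 0.73 in the CRY1 line, and 0.62 and 0.62 in the CRY2 line. All 4 CRY libraries were above both CPN-/- libraries, with the higher Tkt level in the CRY1 line and the lower G6pdx level in the CRY2 line. Within the non-oxidative branch, the log2 ratio of Tkt to Taldo1 was 0.08 and -0.04 in CPN-/-, 0.48 and 0.58 in the CRY1 line, and 0.34 and 0.17 in the CRY2 line. Both ratios were formed after the levels were known and carry no test. The gene closest in pattern to G6pdx over the 6 libraries, by the root mean square difference of centred log2 levels among 10922 genes, was Lrfn3 (0.026), followed by Shb (0.028) and Pfkfb1 (0.034). Those closest to Tkt were Ncbp2 (0.021), Clba1 (0.021) and Atp6v1b2 (0.023).

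**Figure D3:**
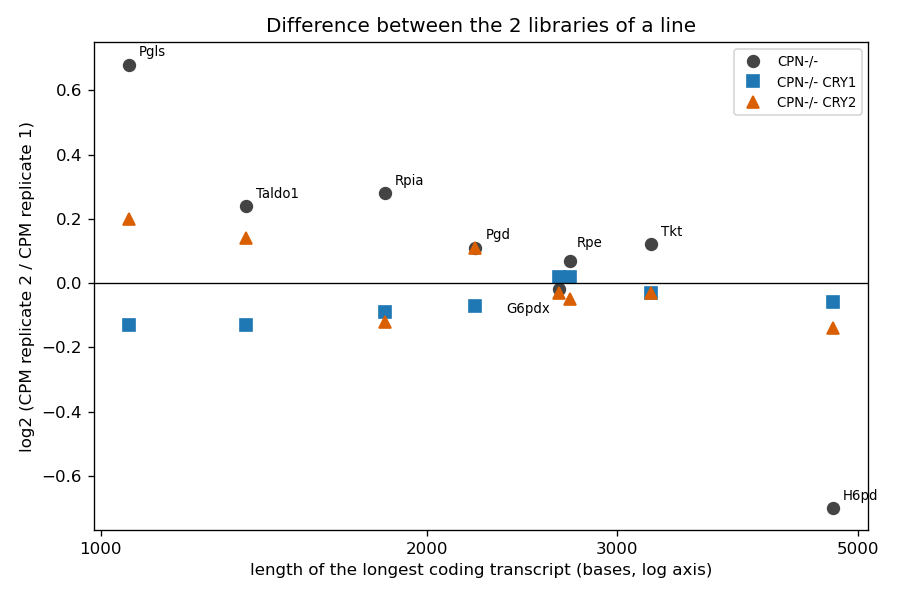
Log2 ratio of the 2 libraries of a line (vertical axis) for the 8 genes against the length of the longest coding transcript (horizontal axis, bases, log scale), with the lines as symbols. The CPN-/- points run from 0.68 for the short Pgls to -0.70 for the long H6pd, while those of the CRY lines stay between -0.14 and 0.20.

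The spread between the CPN-/- libraries differed from gene to gene. Replicate 2 exceeded replicate 1 by 0.68 on the log2 scale for Pgls (1062 bases), by 0.24 for Taldo1 (1362 bases) and by 0.28 for Rpia (1829 bases). The difference was 0.11 for Pgd, -0.02 for G6pdx, 0.07 for Rpe and 0.12 for Tkt, and -0.70 for H6pd, the longest transcript at 4745 bases. G6pdx and Rpe were thus the genes on which the CPN-/- libraries came closest. With the length trend of each library removed by a loess curve, G6pdx in the CRY2 line was called (-0.28, adjusted p = 0.012, among 20.9% of all genes), as was Tkt in the CRY1 line (0.33, adjusted p = 0.0047, among 44.2%), and Taldo1 in the CRY1 line turned to 0.04. Among other values below 0, Pgls shrank from -0.51 to -0.18 in the CRY1 line and from -0.33 to -0.08 in the CRY2 line. Pgd shrank from -0.21 to -0.07 and from -0.23 to -0.09, and Rpia from -0.42 to -0.23 and from -0.37 to -0.18. Taldo1 in the CRY2 line shrank from -0.35 to -0.13. H6pd moved away from 0, from -0.05 to -0.11 in the CRY1 line and from -0.00 to -0.06 in the CRY2 line. None of these was called with or without the trend.

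Leaving out a CPN-/- library changed the calls. Without CPN-/- replicate 1, 6 of the 8 genes were called in the CRY1 line, against 63.7% of all genes, and 7 in the CRY2 line, against 57.0%. In that fit H6pd turned to 0.35 and 0.39, and Pgls went to -0.81 and -0.64. Pgd was at -0.27 and -0.29, Rpia at -0.55 and -0.50, Taldo1 at -0.33 and -0.46, and Tkt at 0.24 and -0.16, and all of these were called. Without CPN-/- replicate 2, 3 genes were called in the CRY1 line (H6pd at -0.35, Rpia at -0.27 and Tkt at 0.37), against 45.0% of all genes, and 3 in the CRY2 line (G6pdx at -0.38, H6pd at -0.30 and Taldo1 at -0.21), against 22.5%, while Pgls in the CRY2 line turned to 0.05. Pgls in the CRY1 line then went to -0.12 (adjusted p = 0.21) and Taldo1 in the CRY1 line to -0.08 (adjusted p = 0.37). In these fits the lone CPN-/- library was assumed to vary like the libraries of the CRY lines, which lie closer together. H6pd was called in opposite directions depending on the library kept. G6pdx in the CRY2 line kept a value of -0.37 or -0.38 and Tkt in the CRY1 line a value of 0.24 or 0.37, and both were called in both fits.

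**Figure D4:**
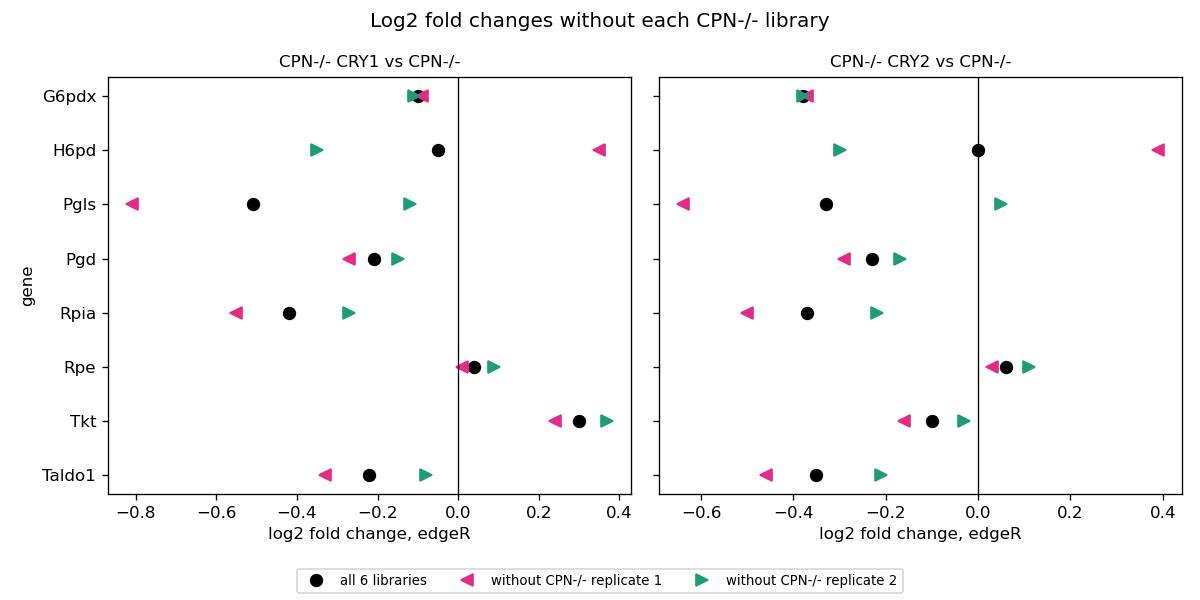
Log2 fold changes of the 8 genes (horizontal axes) against CPN-/- in the CRY1 line (left) and the CRY2 line (right), with all 6 libraries and without each CPN-/- library. H6pd runs from -0.35 to 0.35 in the CRY1 line, whereas G6pdx in the CRY2 line stays between -0.38 and -0.37.

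Enzymes that meet the pathway were counted from 3 lists. Of 16 glycolytic enzymes that share a substrate with it, 11 were tested, and 7 fell in the CRY1 line, where 13.1% of all genes were called lower, and 6 in the CRY2 line, where 4.08% were, with none higher. Their median log2 fold change was -0.72 and -0.65, and -0.78 and -0.77 with the length trend removed. These included Pfkl, the liver-type phosphofructokinase (-1.78 in the CRY1 line and -1.31 in the CRY2 line, adjusted p = 2.3e-04 and 9.8e-04), and Tpi1, the triose phosphate isomerase (-1.27 and -1.06, adjusted p = 0.0026 and 0.0096), which has a near-identical stretch in 1 other gene. They also included Aldoa, an aldolase (-1.09 and -1.04, adjusted p = 0.0017 and 0.0038), and G6pc3, a glucose 6-phosphatase at a low level (-2.22 and -1.55, adjusted p = 0.0014 and 0.0092, from 3.64 CPM in CPN-/- to 0.774 and 1.24 CPM). Between the CRY lines, 2 of the 11 were lower and 1 was higher in the CRY1 line, where 16.3% of all genes were called. The 11 include Gapdh (347 to 586 counts), which edgeR did not call and which has near-identical stretches in 79 other genes. Its reads may have been assigned elsewhere. Gpi1, which fell in both CRY lines, has such a stretch in 1 other gene. This glycolytic list also holds the phosphatases G6pc3, Fbp1 and Fbp2. The study had already reported lower levels of Gpi1, Pfkl, Aldoa, Tpi1 and G6pc3 in both CRY lines from these data. The counts of the glycolytic list are thus not independent of that report. The study also named Pgm2 as lower in both CRY lines. The gene matched to that symbol here, from the sugar phosphate list, was at 0.07 and -0.16 (edgeR, adjusted p = 0.62 and 0.33). Whether both symbols stand for the same identifier was not tested. The 8 pentose phosphate genes lay between -0.51 and 0.30 in the CRY1 line and between -0.38 and 0.06 in the CRY2 line.

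Of 14 ribose and sugar phosphate neighbours, 10 were tested, and 2 fell in the CRY1 line while 0 were called by edgeR in the CRY2 line (3 at an unadjusted p under 0.05, and 1 by DESeq2), beside 24.3% and 6.66% of all genes, so that the counts are near the background. Those that fell were Prps1, which makes phosphoribosyl pyrophosphate from ribose 5-phosphate (-0.49, adjusted p = 0.016, from 106 ± 9.01 CPM in CPN-/- to 75.6 ± 3.51 CPM in the CRY1 line, SD, n = 2 each), and Prpsap1, a partner of that synthetase (-0.41, adjusted p = 0.026). Prps1 had a similar value in the CRY2 line (-0.43, adjusted p = 0.059) and differed by -0.07 between the CRY lines (interval -0.31 to 0.17, adjusted p = 0.72). Between the CRY lines, Prpsap1 differed by -0.48 (lower with CRY1, adjusted p = 0.019). Of 16 other NADPH makers and NADPH-using reductases, 15 were tested, and 2 fell and 2 rose in the CRY1 line while 1 rose in the CRY2 line, again near the 24.3% and 6.66% of all genes. Nadk2, the mitochondrial NAD kinase, stood at 153 and 152 CPM in CPN-/-, at 73.2 and 71.1 CPM in the CRY1 line and at 263 and 291 CPM in the CRY2 line. Its log2 level fell by 1.08 in the CRY1 line (adjusted p = 8.0e-04) and rose by 0.86 in the CRY2 line (adjusted p = 0.0036), and the CRY lines differed by -1.94 (adjusted p = 2.2e-04). The median of chromosome 15, where Nadk2 lies, was -0.36 in the CRY1 line and 0.05 in the CRY2 line, and its part in the result was not tested. Mthfd2 of mitochondrial folate metabolism fell in the CRY1 line (-0.73, adjusted p = 0.0042), while Idh1, the cytosolic NADPH-making isocitrate dehydrogenase (0.53, adjusted p = 0.015), and Nnt, the mitochondrial transhydrogenase (0.36, adjusted p = 0.041), rose. The medians of this list were 0.01 and 0.03, and between the CRY lines 2 of its genes were lower and 1 was higher in the CRY1 line.

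**Figure D5:**
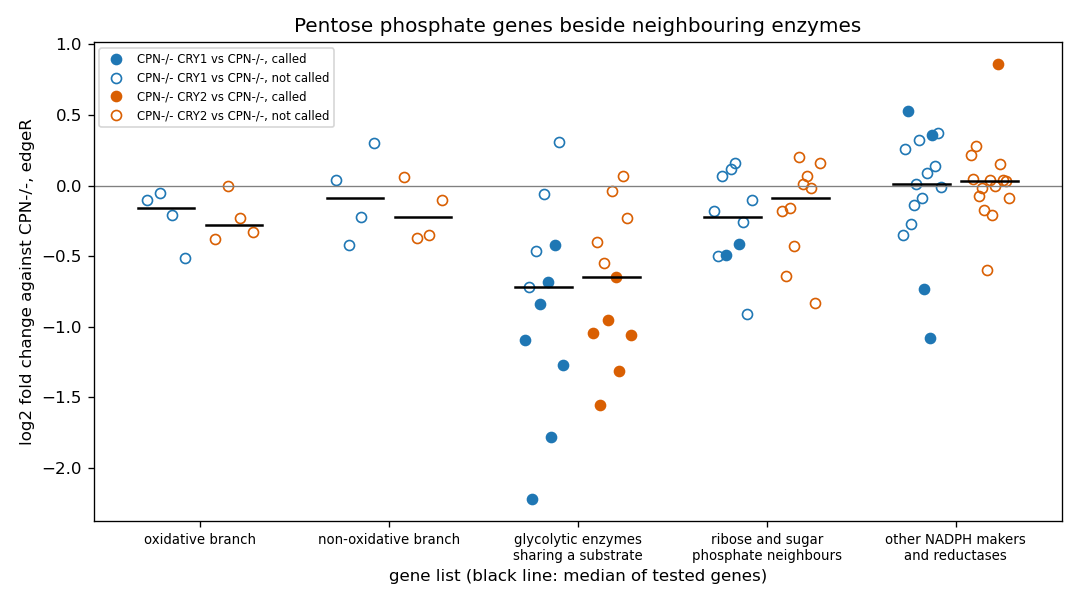
Log2 fold changes against CPN-/- (vertical axis) of the tested genes in 5 lists (horizontal axis), filled where called and with the median as a black line. The glycolytic enzymes have medians of -0.72 and -0.65, below those of the oxidative branch (-0.16 and -0.28) and the non-oxidative branch (-0.09 and -0.22).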

How the data were processed

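RNA of 6 libraries (2 each of 3 MEF lines) was sequenced by the authors after stranded poly(A) library preparation, and per the labels and methods reads were mapped to mm10 with STAR and counted per gene with featureCounts. The gene annotation, the strand setting and the treatment of reads with several matches are not given in the sources used here. The deposited values are whole counts for 27179 NCBI Gene identifiers, used without change. The study tested them with DESeq2.

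Symbols and gene positions came from RefSeq (GRCm38.p6) and matched 25275 identifiers; exons and transcript lengths came from GENCODE vM21. Of 14069 tested genes, 12478 had a length (88.7%). Tests used R 4.3.3 and edgeR 4.0.16 with TMM factors, filterByExpr at its defaults (a minimum of 10 counts for a median-sized library and 15 summed), and 1 model with the line as its only term over all 6 libraries. The two-sided quasi-likelihood test was adjusted by Benjamini-Hochberg over all tested genes, and a gene was called at an adjusted p under 0.05. Intervals are at 95%. DESeq2 1.42.0, other scalings, filters, thresholds, removal of the length trend (loess, span 0.5), a replicate block and leaving out each library were alternatives. Near-identical transcripts were searched with BLAST+ 2.17.0 (95% identity over 150 bases). The fits were first tested on simulated data. With 2 libraries per line, precision rests on a spread shared across genes.

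The genes and lists were chosen with earlier results of these data known. All 8 enzyme genes are named in every comparison. Of each neighbouring list, the 4 genes with the largest log2 fold change in size among those called against CPN-/- are named. Likeness of pattern was ranked among tested genes with a mean count of at least 100.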

Additional observations from a re-analysis of the deposited data

Results flagged for a closer look

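The level of Tkt differed between the CRY lines. The direct comparison of CPN-/- CRY1 with CPN-/- CRY2 gave a log2 fold change of 0.41 (edgeR, adjusted p = 0.029), with both CPN-/- CRY1 libraries above both CPN-/- CRY2 libraries. The value stayed between 0.39 and 0.42 when single libraries were left out. The call was lost without any one of the 4 CRY libraries. With only those 4 libraries in the fit, the adjusted p was 1.6e-07 in edgeR's test, where 6846 of 14069 genes were called.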

How the results depend on the processing

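Over 432 combinations of gene, comparison and alternative for the 8 genes, 378 kept their direction and their side of the threshold, 6 lost a call, 35 gained one and 13 changed sign. Calls among the 8 genes in CPN-/- CRY1 rose from 0 to 1 with scaling by library size or with every gene of at least 1 count (Rpia), and with DESeq2 or removal of the length trend, with or without a replicate block (Tkt). In CPN-/- CRY2 they rose from 0 to 1 (G6pdx) with library size, upper quartile, DESeq2, and removal of the length trend with or without the block. Between the CRY lines, 1 call became 3 with only the 4 libraries of the comparison (Tkt, G6pdx, Pgls), 2 with the length trend removed, with or without the block, and 0 at an adjusted p under 0.01 or a log2 fold change of at least 1. Leaving out single libraries gave 0 to 6, 0 to 7 and 0 to 3 calls among the 8, 679 to 8958, 184 to 8024 and 477 to 6853 among all genes, and an oxidative minus non-oxidative mean of -0.21 to -0.05, -0.11 to 0.05 and -0.12 to -0.07. With all libraries that mean was -0.15, -0.05 and -0.10.

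Of all genes, CPN-/- CRY1 had 3423 calls, 1807 with 4 libraries, 5514 (2321 lower, 3193 higher) with the length trend removed, 5531 with the block added, 1184 at 0.01 and 1089 at a log2 fold change of 1. CPN-/- CRY2 had 937, and 474, 2610 (996 lower, 1614 higher), 2717, 363 and 526 in that order, with 583 where every library needed 10 counts. The CRY lines had 2292, and 6846, 4582, 4552, 854 and 828. The cause was not tested. Sign changes were Taldo1 in CPN-/- CRY1 to 0.04 with the length trend removed, with and without the block, and H6pd to 0.35 without CPN-/- replicate 1. In CPN-/- CRY2, H6pd went to 0.03 with the block, 0.00 with DESeq2, 0.39 without CPN-/- replicate 1 and 0.07 without CPN-/- CRY2 replicate 2, and Pgls to 0.05 without CPN-/- replicate 2. Between the CRY lines, Pgd went to -0.01 without CPN-/- CRY1 replicate 1, and without CPN-/- CRY2 replicate 1 Pgd went to -0.03, H6pd to 0.02, Rpia to 0.01 and Rpe to 0.01.

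The samples were not treated as paired by replicate number, and deviations of same-numbered libraries correlated at -0.079, 0.141 and -0.030. The CPN-/- deviations followed transcript length (Spearman's rho of -0.697), so that these values cannot exclude a shared preparation. The replicate block gave 0, 0 and 1 calls among the 8 genes and 3458, 977 and 2188 among all genes. Other values without single libraries ranged, for the genes that changed sign, from -0.35 to 0.35 (H6pd, CPN-/- CRY1), -0.30 to 0.39 (H6pd) and -0.64 to 0.05 (Pgls) in CPN-/- CRY2, and between the CRY lines up to 0.08 for Pgd and down to -0.04 for Rpe.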
